A study of Mus musculus with 24 samples.

Results

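Foxa2 binding sites of iHep line 4a2 were compared between ChIP-seq libraries that carry the term EGS in their title and a library that does not (non-EGS). The comparison used 3 deposited peak lists: EGS culture 1 and EGS culture 2, whose titles share the run code R164 (written without the R for EGS culture 2), and non-EGS culture 2 of run R215. Lists were chosen by their titles within the line and the Foxa2 antibody, and the Flag list of the line was left out. They held 957, 1040 and 11408 peaks, which is 13405 of the 26332 peaks in the 14 lists of the series of 24 samples. All 3 lists came from C57BL/6 mouse embryonic fibroblasts of embryonic day 13.5 that were infected with Foxa2 and Hnf4alpha and carried on to the iHep (induced hepatocyte-like) stage. Sites were also looked up in the 9 other Foxa lists. These came from line 4a1 (same fibroblasts, infected with Foxa1 and Hnf4alpha, Foxa1 antibody), line 4a3 (Foxa3 and Hnf4alpha, Foxa3 antibody) and hepatocytes of C57BL/6 livers at 10 weeks of age (antibodies to Foxa1, Foxa2 and Foxa3). The labels do not say whether the antibody tells the introduced Foxa2 from the cells' own. They also do not say whether the culture numbers mark separate inductions, so the spread between EGS culture 1 and EGS culture 2 may be technical.

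Foxa2 is a forkhead transcription factor of endoderm and liver, known for binding its sites in closed chromatin ahead of other regulators. Foxa1 and Foxa3 are its relatives, with closely similar DNA-binding domains. Hnf4alpha is a nuclear receptor that drives hepatocyte genes and is used together with a Foxa factor to turn fibroblasts into hepatocyte-like cells. In ChIP-seq, cells are crosslinked, the chromatin is sheared and pulled down with an antibody, and peaks are stretches where sequenced fragments pile up. The labels do not spell out EGS. In ChIP protocols these letters usually name ethylene glycol bis(succinimidyl succinate), a reagent that joins neighbouring proteins through their amino groups and is added besides formaldehyde.

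The EGS lists were about equally long, and together shorter than the non-EGS list. Their geometric mean was 998 peaks, against 11408 peaks in the non-EGS list, a ratio of 0.0875. With 2 lists on the EGS side and 1 on the other, the exact permutation test (two-sided) gave p = 0.33, the smallest that 3 assignments allow, so no comparison over these libraries can pass a threshold. Peaks were also narrower with EGS. Median width was 142 bp in EGS culture 1 and 135.5 bp in EGS culture 2, against 458 bp in the non-EGS list, and the narrowest peaks were 97, 93 and 320 bp. Peak names also have another format in the non-EGS list. EGS, run and any difference in peak calling therefore cannot be told apart, and library depth is unknown. Shares below carry exact 95% Clopper-Pearson intervals. These cover counting error only. They carry no p-value, since peaks of a list come from a single library and are not replicates.

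The EGS lists recovered mainly the highest-scoring part of the non-EGS list. Peaks carry a score that the authors gave them, used here as a rank within a list. Its scale is not stated, so raw scores, where printed or plotted, are not comparable between lists. A peak counted as recovered when a peak of EGS culture 1 or EGS culture 2 overlapped it by at least 1 bp. Of all 11408 non-EGS peaks, 1276 (11.2%, interval 10.6 to 11.8) were recovered by either EGS list, and 392 (3.44%, 3.11 to 3.79) by both.

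In the top decile of the non-EGS list, 43.2% (40.3 to 46.1) of 1141 peaks were recovered. The share was 19.8% (17.5 to 22.2) in decile 2, 12.2% (10.3 to 14.2) in decile 3 and 7.81% (6.32 to 9.52) in decile 5. In the bottom decile it was 3.25% (2.30 to 4.45), with 37 of 1140 peaks. Every step down to decile 9, with 2.89% (2.0 to 4.04), was a decrease, though the intervals of neighbouring deciles overlap from decile 3 on. The 2 EGS lists gave almost the same profile. EGS culture 1 recovered 31.4% (28.7 to 34.2) of the top decile and EGS culture 2 recovered 30.2% (27.6 to 33.0). In the bottom decile these shares were 1.75% (1.07 to 2.70) and 1.93% (1.21 to 2.91).

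Within the top decile the share kept rising toward the strongest sites. Of the 50 highest-scoring non-EGS peaks, 45 (90%, 78.2 to 96.7) were recovered, and 34 of them by both EGS lists. Of the top 100 it was 81 (71.9 to 88.2 in percent), of the top 500 it was 56.8% (52.3 to 61.2), and of the top 2000 it was 33.8% (31.7 to 35.9). The recovered peaks were therefore concentrated at the top: 38.6% of the 1276 lay in the top decile and 82.1% in the upper 5 deciles. Of the 392 peaks recovered by both EGS lists, 53.6% lay in the top decile and 91.1% in the upper 5 deciles. The median rank was 939 for peaks recovered by both, 2041 for peaks recovered by EGS culture 1 alone, 2597 for those recovered by EGS culture 2 alone, and 6137.5 for peaks that neither recovered.

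**Figure D1:**
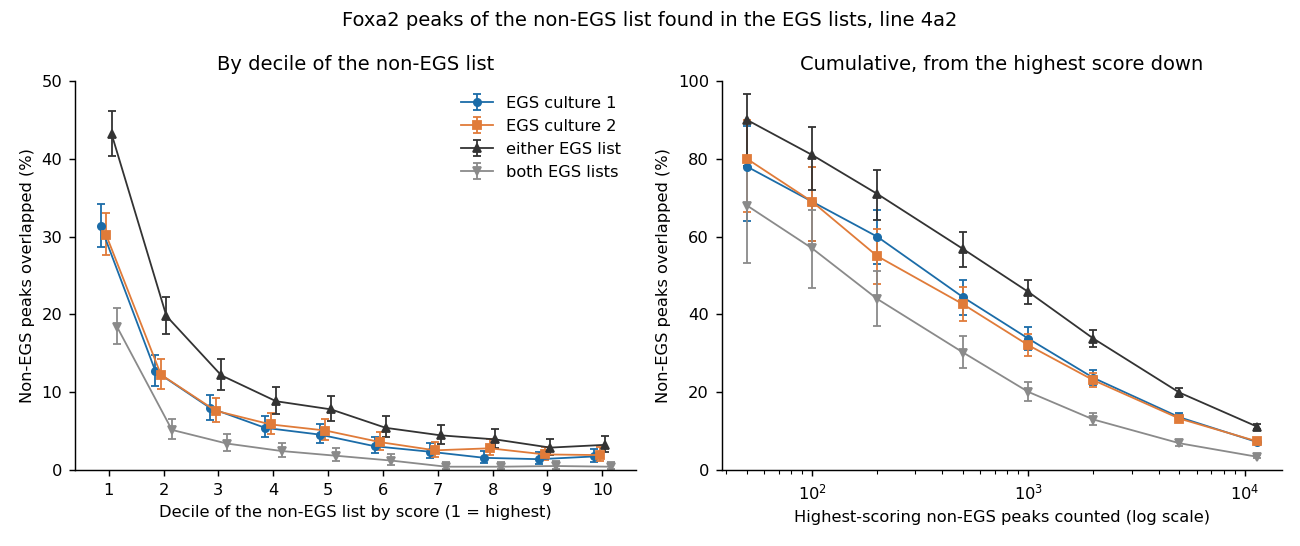
Share of non-EGS Foxa2 peaks of line 4a2 overlapped by EGS culture 1, EGS culture 2, either or both. The left panel has deciles of the non-EGS list by score on the x axis, and the right panel the number of highest-scoring peaks counted (log scale). Bars are exact 95% intervals. The share recovered by either list is 43.2% in the top decile and 3.25% in the bottom decile, and 90% of the top 50 peaks.

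The sites with the highest mean score percentile over the 3 lists were led by a region on chromosome 10. It spans 86307884 to 86308740 (mm9, as for all positions here), ranked 1 in EGS culture 1, 1 in EGS culture 2 and 4 in the non-EGS list. The authors' scores there were 65.3 and 58.0 in the EGS lists and 364.8 in the non-EGS list, which cannot be compared between lists. The region also held a peak of every Foxa1 list of line 4a1, of Foxa3 EGS culture 1 and Foxa3 non-EGS of line 4a3, and of the hepatocyte Foxa2 list. The next region, on chromosome 11 (22337312 to 22337943), ranked 26, 15 and 354 in EGS culture 1, EGS culture 2 and the non-EGS list. A region on chromosome 9 (62938644 to 62939616) ranked 11, 49 and 263, one on chromosome 13 (99584797 to 99585688) ranked 16, 9 and 732, and one on chromosome 17 (12985247 to 12985843) ranked 9, 29 and 718. Ranks are not comparable between lists of such different length. In percentiles of its own list the region on chromosome 13 stood at 98.4 in EGS culture 1, 99.2 in EGS culture 2 and 93.6 in the non-EGS list, and that on chromosome 9 at 98.9, 95.3 and 97.7.

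Only 5 of the 50 highest-scoring non-EGS peaks had no EGS peak, and each was a Foxa1 peak of the non-EGS list of line 4a1, as were all 50. The highest, on chromosome 3 (129132028 to 129132702), ranked 8 with a score of 248.9 and also held a peak of Foxa3 EGS culture 1 of line 4a3 and of the hepatocyte Foxa2 list. The peak on chromosome 4 (120330219 to 120330838) ranked 33 and held peaks of both Foxa1 EGS lists of line 4a1. Those on chromosome 5 (147035373 to 147036029) and chromosome 12 (30572745 to 30573431) ranked 36 and 37 and were found elsewhere in the Foxa1 non-EGS list only. The peak on chromosome 14 (47449615 to 47450403) ranked 44 and was held by both Foxa1 EGS lists, by Foxa3 EGS culture 1 and by the Foxa3 non-EGS list. In the top 100, a Foxa1 EGS list held 7 of the 19 peaks that were not recovered and 64 of the 81 that were. In the top 1000, it held 117 of 542 peaks that were not recovered (21.6%, 18.2 to 25.3) and 301 of 458 that were (65.7%, 61.2 to 70.1). The Foxa1 non-EGS list held 373 of these 542 (68.8%, 64.7 to 72.7), near its 74.3% of all top 1000 peaks. At least 1 of the 9 other Foxa lists held 399 of the 542 (73.6%), against 417 of the 458 (91.0%) and 81.6% of all top 1000 peaks. The remaining 143 of the 542 were in none of them.

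Seen from the EGS side, the share of peaks that the non-EGS list held did not fall steadily with a peak's own score. Of the peaks of EGS culture 1, 87.6% overlapped the non-EGS list, and by quintiles of the EGS list, from the highest score to the lowest, the shares were 87.5%, 89.5%, 85.4%, 91.6% and 83.8%. Of those of EGS culture 2, the list with the same culture number as the non-EGS list, 82.7% did, and the quintiles gave 87.0%, 79.8%, 75%, 84.6% and 87.0%. The lowest quintiles of both lists were thus covered about as often as the highest ones, with intervals of 77.8 to 88.7 (lowest) and 82.0 to 91.8 (highest) for EGS culture 1 and of 81.7 to 91.3 for both of these quintiles of EGS culture 2.

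Agreement between the EGS lists was higher in the upper quintiles, with no steady fall below them. In EGS culture 1 the share of peaks that EGS culture 2 also held was 64.6% (57.4 to 71.3) in the top quintile. Below it the shares were 53.9%, 29.7%, 37.2% and, in the lowest, 31.4% (24.9 to 38.5). In EGS culture 2 the share also in EGS culture 1 was 56.7% (49.7 to 63.6) in the top quintile. It was then 50.5%, 29.8%, 30.3% and, in the lowest, 33.2% (26.8 to 40.0). Over the whole lists, 43.4% (40.2 to 46.6) of EGS culture 1 and 40.1% (37.1 to 43.1) of EGS culture 2 were found in the other EGS list, so less than in the longer non-EGS list. Peaks found in a single EGS list were still mostly non-EGS peaks. Of the 542 of EGS culture 1 that EGS culture 2 lacked, 83.6% (80.2 to 86.6) overlapped the non-EGS list, against 92.8% (89.8 to 95.1) of the 415 that it held. For EGS culture 2 the shares were 75.9% (72.4 to 79.2) of 623 peaks and 92.8% (89.9 to 95.1) of 417 peaks.

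**Figure D2:**
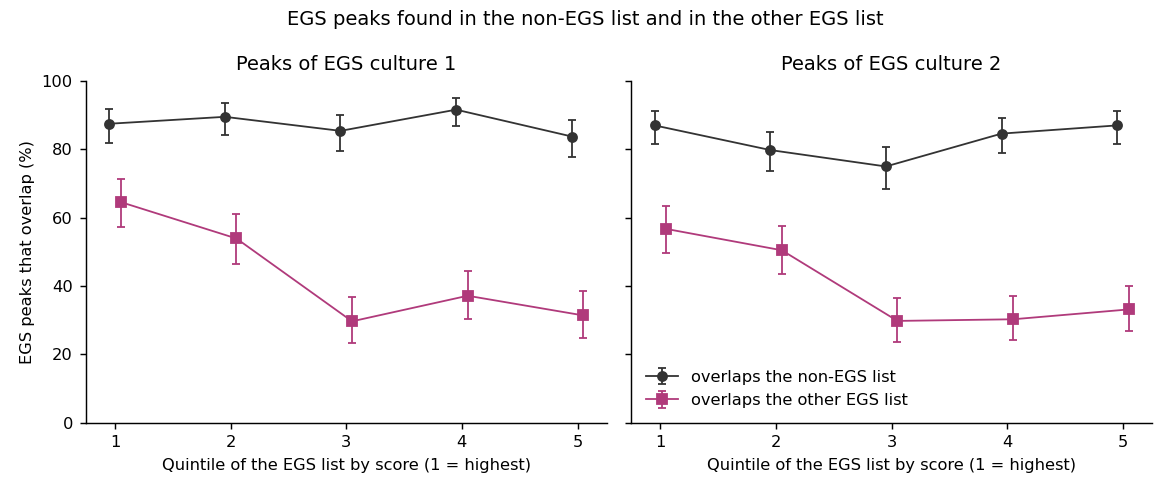
Share of peaks of EGS culture 1 (left) and EGS culture 2 (right) that overlap the non-EGS list (circles) or the other EGS list (squares), by quintile of the EGS list by score. Bars are exact 95% intervals. Overlap with the non-EGS list stays between 75% and 91.6%, while overlap between the EGS lists is 64.6% and 56.7% in the top quintiles and 31.4% and 33.2% in the lowest.

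The order of the sites differed between the lists even where they shared them. Over the 838 overlapping pairs of a peak of EGS culture 1 with a non-EGS peak, Spearman's rho of the scores was 0.08, and over the 860 pairs of EGS culture 2 it was -0.03. Over the 417 pairs between the EGS lists it was 0.35. These are descriptions across sites, which share their libraries. In EGS culture 2 the top quintile matched non-EGS peaks of median rank 2783, and the other quintiles peaks of median rank 1129.5 to 1830. In EGS culture 1 the medians lay between 1263.5 in the top quintile and 1730 in the lowest. The top quintile of EGS culture 2 was also the one least often found in the Foxa1 non-EGS list of line 4a1 (25%, against 31.3% to 38.0% in its other quintiles) and most often in the Foxa3 non-EGS list of line 4a3 (42.8%, against 14.4% to 35.1%). In EGS culture 1 the top quintile was in the Foxa1 non-EGS list in 47.9% of cases, against 40.8% to 47.9% in the others, and in the Foxa3 non-EGS list in 35.9%, against 15.6% to 30.4%.

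The positions agreed closely. An EGS peak lay wholly inside its non-EGS peak in 97.7% of the pairs of EGS culture 1 and 98.8% of those of EGS culture 2. The median distance between centres was 41 bp for EGS culture 1 and 40 bp for EGS culture 2, and 82.5% and 83.0% of pairs lay within 100 bp. Between the EGS lists the median distance was 26 bp. An EGS peak was 0.26 times as wide as its non-EGS partner for EGS culture 1 and 0.25 times for EGS culture 2 (medians). In a few cases separate EGS peaks fell in a single non-EGS peak. This happened in 14 non-EGS peaks for EGS culture 1 and 15 for EGS culture 2, with median centre distances of 317.75 and 279.5 bp between the EGS peaks.

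**Figure D3:**
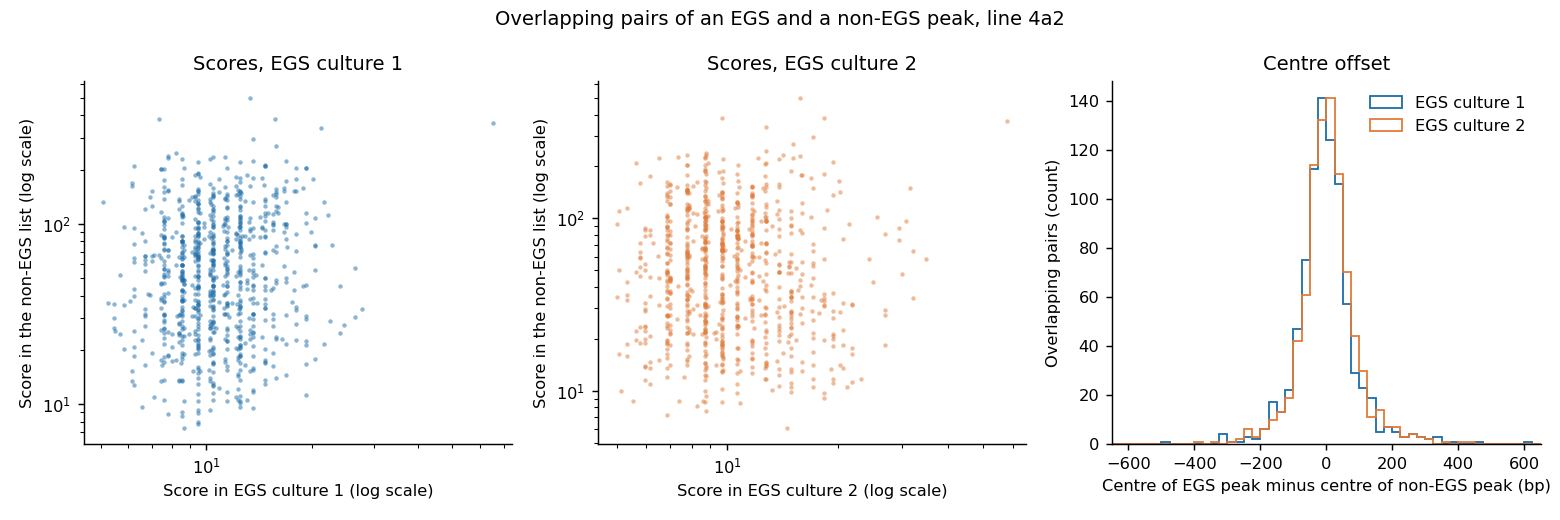
Overlapping pairs of an EGS peak and a non-EGS peak of line 4a2. The left and middle panels plot the score in the EGS list (x, log scale) against the score in the non-EGS list (y, log scale), and the right panel the distance between peak centres in bp. Scores show little common order (rho 0.08 and -0.03), while centres pile up near 0, with medians of 41 and 40 bp in absolute distance.

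Recovery varied between chromosomes and was lowest on chromosome X. Among the autosomes, the share of non-EGS peaks recovered by either EGS list lay between 9.17% (6.28 to 12.8) on chromosome 19 and 15.4% (11.95 to 19.4) on chromosome 17. It was 9.37% (7.58 to 11.4) on chromosome 2 and 14.5% (11.7 to 17.8) on chromosome 9, whose intervals do not overlap. In the top decile, 65% (48.3 to 79.4) of 40 peaks on chromosome 17 and 63.1% (50.2 to 74.7) of 65 on chromosome 9 were recovered, against 26.6% (18.0 to 36.7) of 94 on chromosome 2 and 23.3% (9.93 to 42.3) of 30 on chromosome 19. These chromosomes were picked after their values were seen. On chromosome X it was 8 of 232 peaks (3.45%, 1.5 to 6.68), against 1268 of 11176 on the autosomes together (11.3%, 10.8 to 11.9). Peaks of chromosome X also stood lower in the non-EGS list, with 5 of 232 (2.2%) in the top decile against 10.2% of autosomal peaks. At the ranks that chromosome X peaks have, the autosomal shares per decile would give 7.73%. In deciles 3 to 10, 4 of 214 chromosome X peaks (1.87%, 0.51 to 4.72) and 6.21% (5.71 to 6.73) of autosomal ones were recovered. By distance to the next non-EGS peak, recovery over all peaks was 13.2% (11.03 to 15.6) within 2 kb, 11.8% from 2 to 10 kb, 11.6% from 10 to 50 kb, 10.3% from 50 to 200 kb and 9.57% (7.90 to 11.5) beyond, each lower than the one before, with end intervals that just overlap. In the top decile, 48.1% (38.3 to 58.0) of peaks with a neighbour within 2 kb and 43.5% (33.2 to 54.2) of those with none within 200 kb were recovered, with intervals that overlap.

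Recovered sites differed from other non-EGS sites of the same rank decile in what the other lists held there. Other lists were not used to choose the lists compared, and peaks were set against those of the same decile because sharing itself falls with rank. Deciles do not fully equalise rank. Within the top decile the median rank was 411 for recovered peaks and 680.5 for others. In the Foxa3 non-EGS list of line 4a3, which held 5.19% of all Foxa2 non-EGS peaks, 24.5% of recovered peaks were found, against 4.27% of peaks that were not recovered when weighted to the same deciles, a ratio of 5.74. In decile 2, for example, the Foxa3 non-EGS list held 22.1% of 226 recovered peaks and 3.72% of 915 others, and in decile 9 it held 8 of 33 recovered peaks and 15 of 1108 others. In all 10 deciles the recovered peaks had the higher share.

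Of the 4 EGS lists of the other lines, 3 gave the same direction in all 10 deciles. The other, Foxa3 EGS culture 3 of line 4a3 with 46 peaks, held a single non-EGS peak, a recovered one of the top decile, and none in the other deciles. Foxa3 EGS culture 1 of line 4a3 (run R156), which held 2.26% of all non-EGS peaks, held 13.7% of recovered peaks and 1.55% of others at the same deciles. Foxa1 EGS culture 1 of line 4a1, which shares run R164 and held 7.28% of all, held 39.1% and 9.64%, a ratio of 4.06. Foxa1 EGS culture 2 of line 4a1 (run R170), which held 3.3% of all, held 18.0% and 3.99%, a ratio of 4.52. The hepatocyte Foxa2 list (run R176), which held 0.587% of all, held 3.21% and 0.56%, with the higher share in recovered peaks in all 10 deciles. Unweighted, this was 41 of 1276 recovered peaks and 26 of 10132 others, so counts in the lower deciles were very small. In decile 9 it was 1 of 33 against 0 of 1108. The hepatocyte Foxa3 list held 0.31% of recovered peaks and 0.11% of others, with the higher share in 3 of 10 deciles. Unweighted, this was 4 of 1276 recovered peaks and 16 of 10132 others. The hepatocyte Foxa1 list held 1 recovered peak and 1 other, and gave this order in 1 of 10 deciles, with most deciles empty on both sides. Both lists held too few of these peaks to show an order.

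The Foxa1 non-EGS list of line 4a1 (run R225) stood apart. It held 21.5% of all Foxa2 non-EGS peaks, more than each of the other 8 Foxa lists of other cells. At the same deciles it held 43.0% of recovered peaks and 40.0% of others, a ratio of 1.07, and the share of recovered peaks was higher in only 3 of 10 deciles. With 100 finer rank classes of about 114 peaks it held 43.0% of recovered peaks and 43.2% of others, while the Foxa3 non-EGS list held 24.5% and 4.60%. The ratios at these finer classes were 3.67 for Foxa1 EGS culture 1 and 3.99 for Foxa1 EGS culture 2. They were 7.31 for Foxa3 EGS culture 1 and 4.51 for the hepatocyte Foxa2 list, and each was lower than its ratio by decile. In decile 2 the Foxa1 non-EGS list held 34.1% of 226 recovered peaks and 40.5% of 915 others. The narrowest peak was 317 bp in this list and 320 bp in the Foxa2 non-EGS list, against 127 bp in the Foxa3 non-EGS list, while peak names have the same format in all 3. The part of peak calling in the result was not tested.

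**Figure D4:**
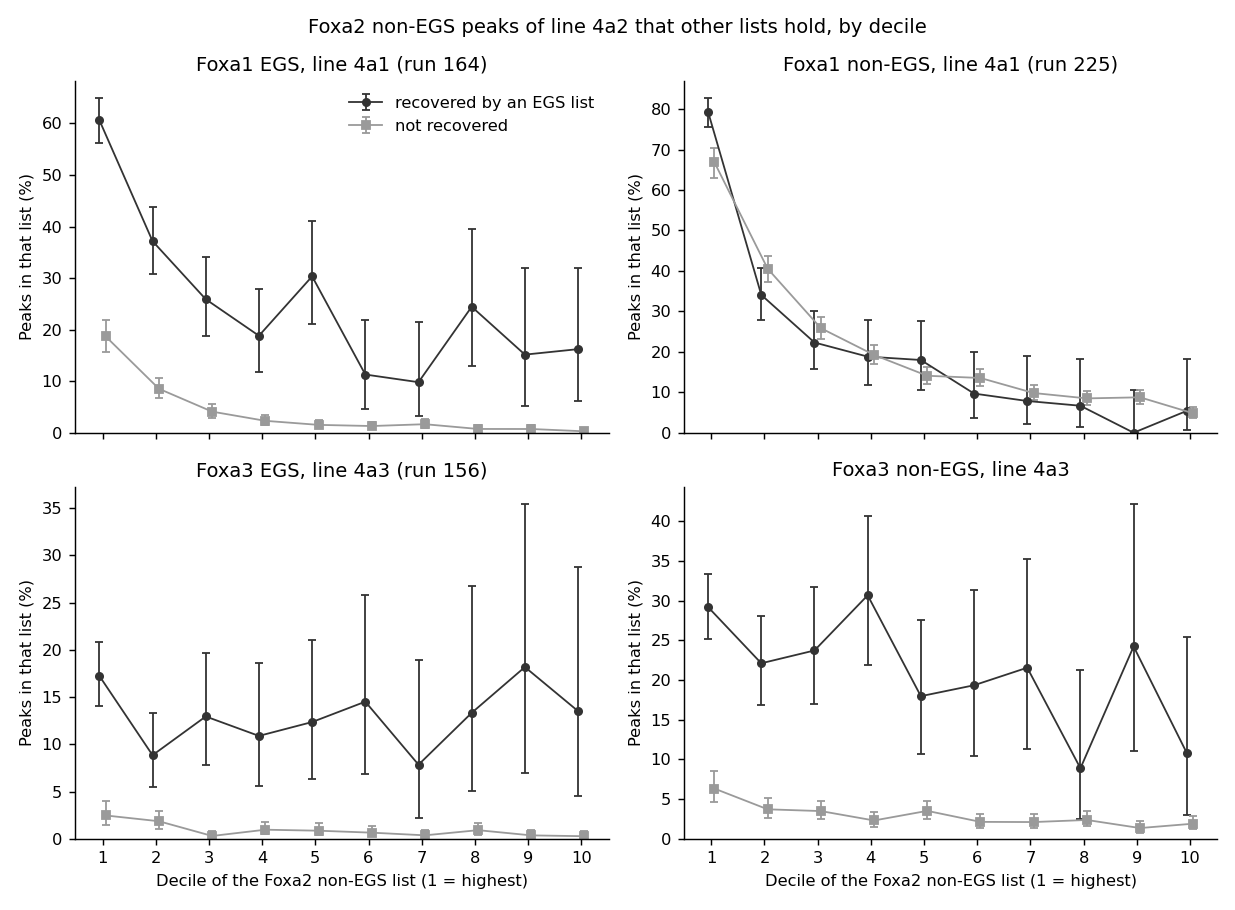
Share of Foxa2 non-EGS peaks of line 4a2 that a list of another line holds, by decile of the Foxa2 non-EGS list, for peaks recovered by an EGS list (circles) and not recovered (squares). Bars are exact 95% intervals, and y axes differ between panels. Recovered peaks lie higher in all 10 deciles for Foxa1 EGS culture 1, Foxa3 EGS culture 1 and the Foxa3 non-EGS list, and in 3 of 10 for the Foxa1 non-EGS list.

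A total of 269 EGS regions lacked a non-EGS peak. Regions are unions of overlapping peaks of the 3 lists, of which there were 11677. Of the 269, EGS culture 1 alone held 89, EGS culture 2 alone held 150, and both held 30. Few lay beside a non-EGS peak. Only 2 of the 119 missing peaks of EGS culture 1 and 9 of the 180 of EGS culture 2 lay within 500 bp of a non-EGS peak, and the median distance to the nearest was 32.6 and 43.8 kb. Their scores were not low for their lists. The median score was 10.3 in missing and 10.5 in shared peaks of EGS culture 1, and 9.66 in both kinds of EGS culture 2. Missing peaks were somewhat narrower, with medians of 122 and 116.5 bp, against 143 and 139 bp in shared ones.

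Of the regions that both EGS lists held and the non-EGS list lacked, the leading one lay on chromosome 5 (137943174 to 137943326). It ranked 2 in EGS culture 1 and 18 in EGS culture 2, and also held a peak of both Foxa1 EGS lists of line 4a1 and of the hepatocyte Foxa2 list. A region on chromosome 15 (7881880 to 7882063), ranked 54 and 270, was also a peak of Foxa1 EGS culture 1 and of the hepatocyte Foxa2 list. The other leading regions were on chromosome 11 (79733374 to 79733576 and 70460787 to 70460955) and chromosome 1 (132950085 to 132950226), and none of the 9 other Foxa lists held them. They ranked 15, 157 and 78 in EGS culture 1, and 159, 243 and 112 in EGS culture 2.

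The leading peaks of EGS culture 1 alone ranked 35 (chr12:93171054-93171212), 38 (chr10:69117539-69117657) and 45 (chr19:34601384-34601507). The first was also in Foxa1 EGS culture 1 of line 4a1 and in the hepatocyte Foxa2 list, and the other two in no other Foxa list. Those of EGS culture 2 alone ranked 7 (chr16:11144121-11144233), 46 (chr7:134716239-134716383) and 53 (chr17:64950014-64950162). Each was held by a Foxa3 list of line 4a3, the region on chromosome 7 by the non-EGS list and the others by EGS culture 1, and the region on chromosome 16 also by the hepatocyte Foxa1 list.

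The regions that both EGS lists held and the non-EGS list lacked were hepatocyte peaks more often than all regions were. Hepatocyte lists, all with EGS in the title and of run R176, held 0.968% of all regions of the 3 lists. They held 10 of the 30 regions (33.3%, 17.3 to 52.8), with 9 in the Foxa2 list and 7 in the Foxa3 list. Among regions of both EGS lists that the non-EGS list shared, they held 28 of 392 (7.14%, 4.80 to 10.2), although these regions are wider (median 600.5 bp, against 164.5 bp) and so have more room to overlap. Of the 10, 8 also held a Foxa1 EGS peak of line 4a1. Those of the 10 in both the hepatocyte Foxa2 and Foxa3 lists all held one. They stood low in EGS culture 1, at percentiles 6.6 to 29.0, and at 43.0 to 85.6 in EGS culture 2. Their positions were chr2:181747669-181747899, chr8:129113522-129113728, chr11:121843669-121843842, chr14:86598783-86598933, chr18:90771587-90771992 and chrX:166527196-166527489. Without a genome of this build, it was not tested whether reads map uniquely there, so shared peaks at these positions need not mean shared binding. Hepatocyte lists were not alone in holding more of the 30 than of all regions. Foxa1 EGS culture 1 of line 4a1 held 9 (30%), against 7.31% of all regions. Foxa1 EGS culture 2 held 6 (20%), against 3.40%, and either of these lists held 11. Foxa3 EGS culture 1 of line 4a3 held 5 (16.7%), against 2.39% of all regions. The Foxa1 non-EGS list of line 4a1 held none of the 30 (upper bound of the exact interval 11.6%), against 21.1% of all regions. All regions are wider, with a median of 455 bp, and most hold a non-EGS peak. Of the 269 EGS regions without one, this list held 4 (1.49%, 0.41 to 3.76). The Foxa3 non-EGS list of line 4a3 held 6 of the 30 (20%, 7.71 to 38.6), against 5.29% of all regions. A total of 14 of the 30 were in no other Foxa list.

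Of the 239 regions of a single EGS list without a non-EGS peak, 57 (23.8%) were in another Foxa list, near the 27.5% of all regions. Of the 30 of both EGS lists it was 16 (53.3%). The difference between the 2 classes was not tested. Hepatocyte lists held 18 of the 239 (7.53%, 4.52 to 11.6), and the Foxa1 non-EGS list held 4 (1.67%, 0.46 to 4.23). Dense runs bore on part of this. Without regions in runs of 5 or more peaks with gaps of at most 1 kb in any Foxa list, hepatocyte lists held 10 of 230 (4.35%, 2.1 to 7.85), while for the regions of both EGS lists they held 9 of 28 (32.1%, 15.9 to 52.4).

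**Figure D5:**
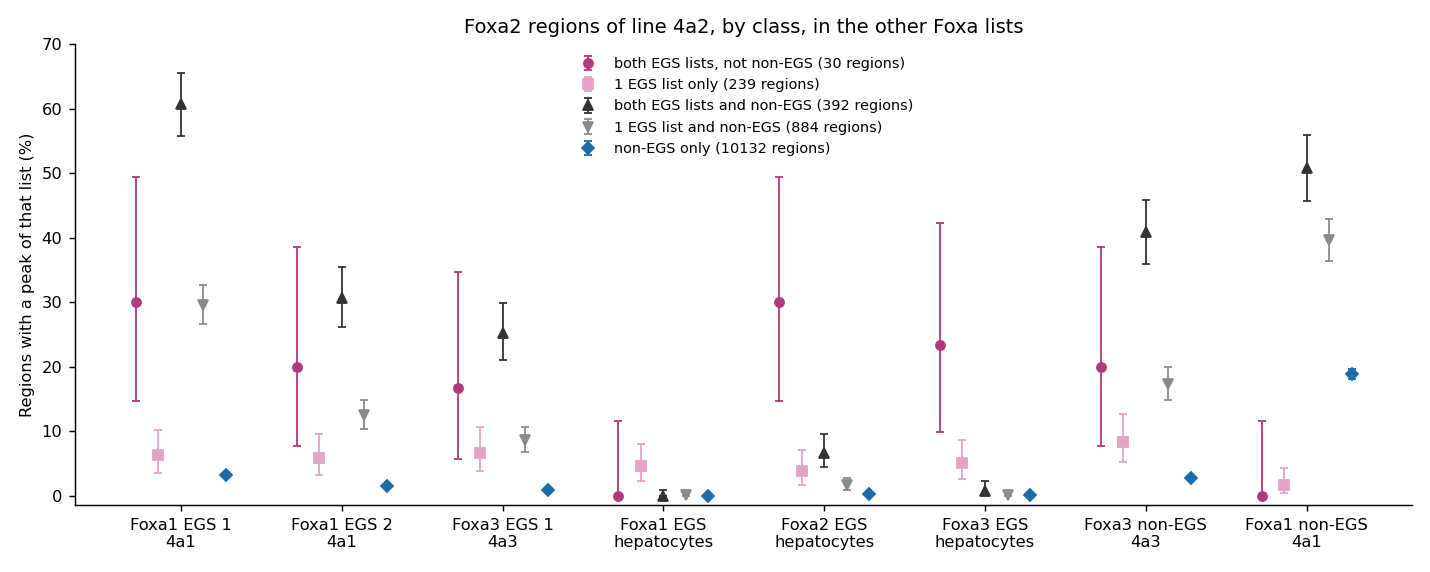
Share of Foxa2 regions of line 4a2 that hold a peak of another list, for 5 classes of region by which of EGS culture 1, EGS culture 2 and the non-EGS list hold them. Bars are exact 95% intervals, and the Foxa3 EGS list of 46 peaks is not drawn. Regions of both EGS lists without a non-EGS peak reach 30.0% in the hepatocyte Foxa2 list and 0% in the Foxa1 non-EGS list, while those with a non-EGS peak reach 6.63% and 50.8%.

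The other lines showed a similar decline along the rank. In line 4a1 the Foxa1 EGS lists recovered 55.2% (49.8 to 60.6) of the top decile of their non-EGS list and 4.66% (2.69 to 7.46) of the bottom decile. In line 4a3 the Foxa3 EGS lists recovered 46.3% (41.5 to 51.1) and 5.57% (3.60 to 8.17). Of the top 100 non-EGS peaks the EGS lists recovered 70 in line 4a1 and 75 in line 4a3, against 81 in line 4a2, with overlapping intervals. The lists differ in length between lines, and the differences between lines were not tested.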

How the data were processed

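Peak lists of 14 ChIP-seq libraries were used as deposited, and 3 of them were compared here. Each line holds a position, a peak name and a score set by the authors, whose scale no label or header states. The submitters' processing notes name the build mm9 and, among tools, bedtools 2.16.2 and MACS2 2.1.0 besides the aligner BWA 0.6.2. Neither calling settings nor read depth could be read from the labels or files, so precision is known only as counting error over peaks. Each file is tied to 1 library, and lists were read as called per library.

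Overlaps were computed in Python (3.11.15) using scipy 1.17.1, pandas 2.3.3 and numpy 2.4.6, and the overlap code was tested on simulated lists. Peaks were ranked by score, with ties ordered by position. EGS scores take 131 and 153 distinct values in EGS culture 1 and EGS culture 2, so quintile borders fall within ties. Coordinates are mm9 with 1-based starts. A genome or annotation of that build was not used here, so no gene, motif or sequence is given for a site.

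Named regions were the 5 with the highest mean percentile in all 3 lists, the 5 highest non-EGS peaks without an EGS peak, the 5 leading regions of both EGS lists without a non-EGS peak, and the 3 leading peaks of each EGS list alone. The lists and questions were chosen with earlier results of these data known. Alternatives were other overlap rules, the top 50% of each list, lists without dense runs, and each EGS list left out. Flag lists were left out.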

Additional observations from a re-analysis of the deposited data

How the results depend on the processing

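Shares of the non-EGS list recovered, shares of the EGS lists in it and counts of regions it lacked stayed within their interval, or within 1.5 times for counts, when 50% of the narrower peak had to be covered, with peaks within 500 bp counted as shared, and without dense runs. With the top 50% of each list, either EGS list recovered 9.91% of non-EGS peaks and 33.3% of the top decile, and the non-EGS list held 76.4% of EGS culture 1 and 65.96% of EGS culture 2, where fewer peaks enter. With windows of 100 bp on each side of the centre, which removes the difference in width, it held 83.9% and 79.2%. With a single EGS list, 7.22% to 7.40% of all non-EGS peaks were recovered, 30.2% to 31.4% of those in the top decile and 1.75% to 1.93% of those in the bottom one, and 119 to 180 EGS regions lacked a non-EGS peak. The count was 119 without EGS culture 2. The ratio of list lengths was 0.0275 for covered bp, against 0.0875 for peaks, and 0.0839 to 0.0912 with a single EGS list. The ratios at the same deciles for the Foxa1 EGS lists, Foxa1 non-EGS, Foxa3 EGS culture 1, Foxa3 non-EGS and hepatocyte Foxa2 lists, recomputed under 4 alternatives chosen after seeing the data, moved by less than 1.5 times. For the Foxa1 non-EGS list the ratio was 0.94 without EGS culture 1 and 1.17 without EGS culture 2, so its side of 1 is not settled. The count of regions that both EGS lists held has no value with a single EGS list. No paired analysis was possible because the EGS and non-EGS libraries share only 1 replicate number. Read depth is unknown, so sites missing from a list may lie below its threshold.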
